A study of Mus musculus with 2 samples.

Results

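The genes described here are the TGF-β ligands and their cell surface receptors: the ligands *Tgfb1*, *Tgfb2* and *Tgfb3*, the signaling receptors *Tgfbr1*, *Tgfbr2* and *Acvrl1*, and the coreceptors *Tgfbr3* and *Eng*. They were chosen by symbol, and all 8 of 8 were found once each among the 32287 features of the count tables. Droplet-based 3′ single-cell RNA sequencing was performed on thoracic aortas of 2 mice at 12 weeks of age. Both were WT GFPiSMC animals on a C57BL/6J background, carrying a tamoxifen-inducible Cre recombinase driven by *Myh11* (a smooth muscle promoter, with the transgene on the Y chromosome, so that only males were studied) and the mT/mG reporter, which switches from tdTomato to GFP after recombination. Both received tamoxifen at 1 mg per day for 5 days from 3 weeks of age, and single viable cells were sorted without regard to GFP. There was 1 group and no control, so every comparison below is between cell types or cell groups of the same 2 aortas.

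TGF-β ligands are secreted as latent dimers that are held in the matrix until they are released. The active ligand binds the type II receptor encoded by *Tgfbr2*, which recruits and phosphorylates the type I receptor encoded by *Tgfbr1*, which in turn phosphorylates SMAD2 and SMAD3. Betaglycan, encoded by *Tgfbr3*, presents ligand, TGF-β2 in particular, to the signaling receptors. Endothelial cells also use the type I receptor ALK1, encoded by *Acvrl1*, and the coreceptor endoglin, encoded by *Eng*, whose main ligands are BMP9 and BMP10 and whose loss causes hereditary hemorrhagic telangiectasia. In the aortic wall, variants of several of these genes underlie heritable thoracic aortic disease.

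In GRCm38 (mm10) the 8 genes lie on 8 different chromosomes. *Tgfb1* is at chr7:25687002-25705077, *Tgfb2* at chr1:186622792-186705989 and *Tgfb3* at chr12:86056745-86079041. *Tgfbr1* is at chr4:47353222-47414931, *Tgfbr2* at chr9:116084293-116175360, *Tgfbr3* at chr5:107106570-107289629, *Eng* at chr2:32646595-32682669 and *Acvrl1* at chr15:101128522-101145336. Genes annotated on the opposite strand overlap *Eng* (*Fpgs*), *Tgfb3* (*Ttll5* and *Gm48008*), *Tgfb2* (*Gm29491*) and *Acvrl1* (*Gm16031*), and how strand was used in counting was not given in the sources used here.

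The 8947 and 6263 deposited cells held 47009780 and 30919996 UMIs (unique molecular identifiers, 1 per captured transcript), and the aortas shared 18 cell barcodes, 10 of them among the cells analysed. After filtering, 6543 and 4609 cells with 41162456 and 27595786 UMIs were analysed, of which 24690 and 16445 UMIs belonged to the 8 genes. Cells were clustered without the 8 genes and without 43 further TGF-β pathway genes, and 29 of 32 clusters could be named from their markers. In 2 of the SMC clusters (911 and 130 cells) 7 of the 8 SMC markers were detected, but the 10 leading genes held 1 marker of small-vessel mural cells (*Rgs5* or *Notch3*) and none of SMCs. The 10 cell types tested were smooth muscle cells (SMCs; 2233 and 1613 cells in aorta 1 and aorta 2), fibroblasts (1628 and 1139), blood endothelial cells (738 and 653), lymphatic endothelial cells (47 and 76), mesothelial cells (273 and 156), macrophages (793 and 479), monocytes (51 and 30), neutrophils (47 and 35), T cells (468 and 248) and B cells (132 and 99). Each name stands for cells carrying those markers, and every marker of each of these types was detected in its own cells in both aortas. Erythroid cells (22 and 13) and unnamed cells (111 and 68) were left out of tests. Levels are given as CPM, the UMIs of a gene per 1000000 UMIs of that cell type in that aorta, and because each transcript is counted once at its 3′ end they do not scale with transcript length. A gene was called when edgeR's quasi-likelihood test on the summed counts of both aortas gave an adjusted p under 0.05 and a difference of more than 2-fold.

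The 3 ligands were spread differently over the cell types. *Tgfb1* was the ligand of leukocytes and endothelium, *Tgfb2* was highest in mesothelial cells and then SMCs, and *Tgfb3* was shared by fibroblasts, mesothelial cells and SMCs. All 8 genes differed among the 10 cell types in edgeR's F test, with adjusted p between 1.38e-20 (*Eng*) and 1.38e-11 (*Tgfbr1*), but so did 91.6% of the 13156 genes tested.

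*Tgfb1*, the ligand best known from platelets and immune cells, reached 475 CPM in monocytes of aorta 1 and 368 in those of aorta 2. Lymphatic endothelial cells (246 and 201 CPM) and macrophages (218 and 215) came next and overlapped each other. Neutrophils (141 and 198), B cells (173 and 85.5), T cells (105 and 95.2) and blood endothelial cells (99.7 and 96.2) formed a run in which each type overlapped the next. The B cell values stood furthest apart of these, with 110 UMIs in aorta 1 and 40 in aorta 2. Below that run the types separated without overlap: SMCs at 37.6 and 41.4 CPM, fibroblasts at 28.2 and 23.0, and mesothelial cells at 11.1 in both aortas. Because SMCs and macrophages were abundant, macrophages still held 35.1% (95% exact binomial interval 33.4 to 36.8) and 33.0% (30.9 to 35.2) of all *Tgfb1* UMIs, and SMCs held 20.5% and 25.4%. The SMC level was 17.2% and 19.3% of that in macrophages, above the 0.145% to 0.290% and 0.101% to 0.218% of the 7 macrophage markers in SMCs. Such intervals cover counting error only.

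*Tgfb2* was led by mesothelial cells, the outer lining of the wall, at 344 CPM in aorta 1 and 205 in aorta 2. SMCs followed with 112 and 99.0 CPM, and lymphatic endothelial cells with 90.1 and 86.7. Fibroblasts (61.4 and 52.0) and macrophages (49.97 and 61.1) overlapped, and blood endothelial cells had 27.7 and 20.3. In T cells (2.21 and 5.55 CPM) the level was 1.97% and 5.61% of that in SMCs, while the 8 SMC markers in T cells ran from 1.59% to 4.55% and from 5.49% to 8.40% of their SMC levels, so the T cell value was within the range of transcripts carried over between droplets. SMCs, at 40.7% and 42.2% of all UMIs, held 54.1% and 58.5% of the *Tgfb2* UMIs, mesothelial cells 17.8% and 10.3%, and fibroblasts 17.9% and 18.3%.

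*Tgfb3* was highest in fibroblasts (101 CPM in aorta 1 and 82.7 in aorta 2) and mesothelial cells (89.2 and 79.0), which overlapped. SMCs had 64.8 and 47.4 CPM, and lymphatic endothelial cells 18.0 and 23.6. Blood endothelial cells (6.27 and 3.53) and every leukocyte type were under 10 CPM in both aortas, and neutrophils had 0 UMIs, which allowed up to 30.3 and 45.8 CPM at their depth (3 counts). The blood endothelial level was 6.23% and 4.27% of that in fibroblasts, inside the range of the 7 fibroblast markers in the same cells (0.738% to 13.1% and 0.534% to 11.5%). SMCs and fibroblasts held nearly equal shares of all *Tgfb3* UMIs, 46.9% and 44.5% against 44.0% and 46.2%.

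**Figure D1:**
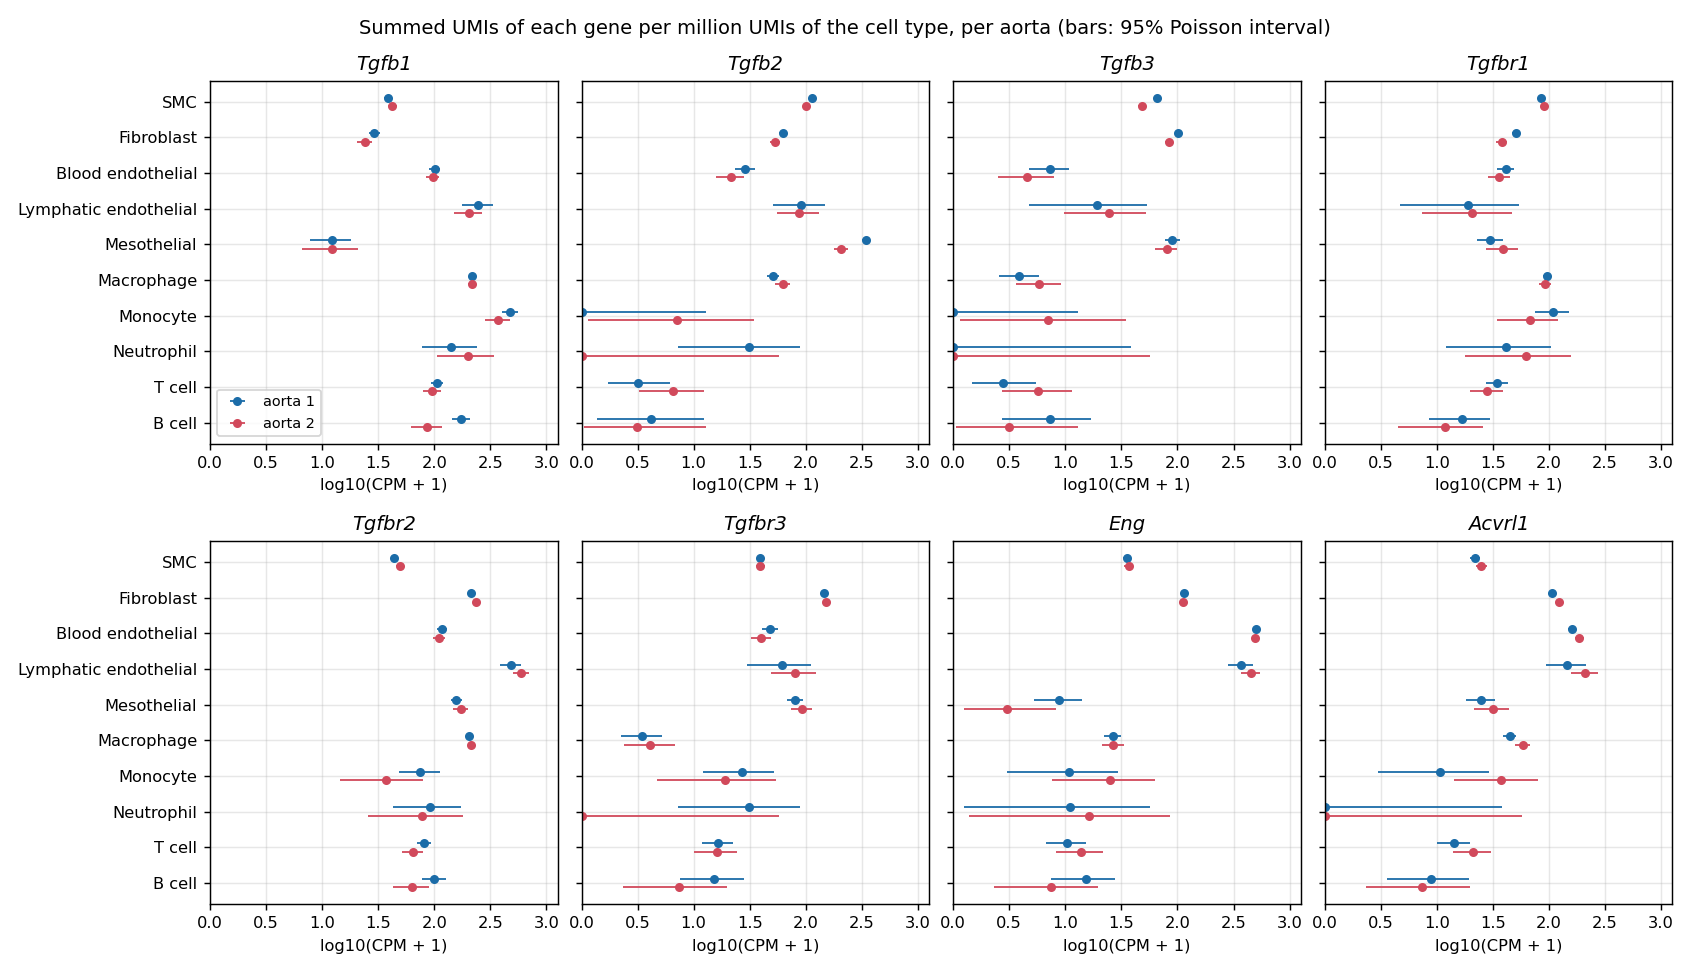
Level of each of the 8 genes (x axis, log10 of CPM + 1) in 10 cell types (y axis), with 1 point per aorta and its 95% Poisson interval, which covers counting error only. *Eng* and *Acvrl1* peak in the 2 endothelial types, *Tgfb2* in mesothelial cells, *Tgfb1* in monocytes and *Tgfbr2* in lymphatic endothelial cells, and the mean *Tgfbr2* is lowest in SMCs, with the monocytes of aorta 2 below them.

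The mix of ligand transcripts within a cell type followed from these levels. In SMCs *Tgfb2* made up 52.2% and 52.7% of the 3591 and 2185 ligand UMIs, with *Tgfb3* at 30.2% and 25.2% and *Tgfb1* at 17.5% and 22.1%. Fibroblasts had the same 2 leading ligands in the opposite order, with *Tgfb3* at 52.9% and 52.4% and *Tgfb2* at 32.2% and 33.0%. Mesothelial cells were 77.4% and 69.4% *Tgfb2*, with *Tgfb1* at only 2.51% and 3.78%. Blood endothelial cells (74.6% and 80.1%), macrophages (80.5% and 76.5%) and T cells (96.4% and 90.2%) were mostly *Tgfb1*. These shares compare the mix between types, since transcripts of different genes need not be captured equally well.

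Among the signaling receptors, *Tgfbr1* and *Tgfbr2* had different orders of cell types, and SMCs were near the top of one and at the bottom of the other. *Tgfbr1*, the type I receptor, was highest in macrophages (95.1 CPM in aorta 1 and 91.7 in aorta 2), monocytes (107 and 66.4) and SMCs (83.8 and 88.3), each overlapping the next. The macrophage value came mostly from 1 cluster, led by *Mmp12*, with 15.01% and 16.7% of the cells and 422 and 387 CPM, while the other 3 macrophage clusters, at 25.5 to 45.5 CPM, lay below SMCs. Neutrophils (40.4 and 61.0), fibroblasts (49.8 and 36.7), blood endothelial cells (39.9 and 34.9), mesothelial cells (29.0 and 37.5) and T cells (33.6 and 27.0) again formed an overlapping run. Lymphatic endothelial cells (18.0 and 19.7 CPM, from 3 and 5 UMIs) and B cells (15.7 and 10.7) were lowest. SMCs held 51.9% and 59.3% of all *Tgfbr1* UMIs.

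*Tgfbr2*, the ligand-binding type II receptor, was highest in lymphatic endothelial cells, at 480.3 CPM (95% Poisson interval 381 to 598) and 595 CPM (504 to 698). Fibroblasts (213 and 237), macrophages (205 and 213), mesothelial cells (157 and 171) and blood endothelial cells (116 and 109) followed; of these, fibroblasts and macrophages met at 213 CPM, and the others were separate. SMCs were lowest of the 10 types, at 43.0 and 48.2 CPM, although the monocytes of aorta 2 (36.2) lay below them. The UMIs of *Tgfbr2* per UMI of *Tgfbr1* were 0.513 and 0.546 in SMCs, and 0.697 and 0.545 in monocytes. In the sums of the other 8 types this ratio was above 1 in both aortas, with 4.29 and 6.45 in fibroblasts, 2.89 and 3.14 in blood endothelial cells, 2.15 and 2.33 in macrophages and 26.7 and 30.2 in lymphatic endothelial cells. Single clusters within these types lay on the other side. The *Mmp12* macrophages had a ratio of 0.266 and 0.333, against 5.96 and 7.09 in the largest macrophage cluster, and the *Rag1* T cells 0.478 and 0.455, against 4.81 and 5.54 in the largest T cell cluster. Fibroblasts held 43.9% and 46.5% of all *Tgfbr2* UMIs and SMCs 14.7% and 15.9%.

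Transcripts of both receptors were seldom captured in the same cell. After each cell was thinned to 1000 UMIs, so that cell types of different depth could be compared, both were found in 0.269% (interval 0.0987 to 0.584) and 0.310% (0.101 to 0.722) of SMCs, in 1.04% and 0.615% of fibroblasts, in 0.271% and 0.306% of blood endothelial cells and in 1.77% and 1.46% of macrophages. In T cells, 0 of 468 and 0 of 248 thinned cells had both. Without thinning the shares were 13.2% and 14.8% in SMCs, at a median of 7750 and 7487 UMIs per cell, and 5.15% and 4.13% in blood endothelial cells, at 3742 and 3039. These shares count cells in which both transcripts were captured, not cells that have both receptors.

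The endothelial receptor *Acvrl1* was highest in lymphatic (144 and 209 CPM) and blood endothelial cells (159 and 185), which overlapped. Fibroblasts had 105 and 121 CPM, macrophages 43.5 and 57.0, and SMCs 20.7 and 24.0. The SMC level was 12.99% and 12.97% of that in blood endothelial cells, against 0.126% to 0.937% and 0.144% to 0.926% for the 8 blood endothelial markers, and so above the range of carry-over. Neutrophils had 0 UMIs. Fibroblasts, with more cells, held more of the *Acvrl1* UMIs (47.0% and 45.4%) than blood endothelial cells (21.4% and 22.6%).

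Among the coreceptors, *Tgfbr3* was highest in fibroblasts (144 CPM in aorta 1 and 149 in aorta 2) and *Eng* in blood endothelial cells. Mesothelial cells had 79.1 and 91.1 CPM of *Tgfbr3*, lymphatic endothelial cells 60.04 and 78.8, blood endothelial cells 46.9 and 38.8, and SMCs 38.4 and 38.2, and no neighbours in this order overlapped. By their mean macrophages were lowest, at 2.44 and 3.09 CPM, although the neutrophils of aorta 2 held 0 UMIs, which allows up to 45.8 CPM. The macrophage values are 1.69% and 2.07% of the fibroblast level and inside the 0.681% to 2.75% and 0.355% to 2.95% range of the fibroblast markers in macrophages. Fibroblasts held 59.1% and 60.5% of all *Tgfbr3* UMIs.

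*Eng* reached 496 and 491 CPM in blood endothelial cells and 366 and 449 in lymphatic endothelial cells, followed without overlap by fibroblasts (114 and 111), SMCs (34.2 and 35.8) and macrophages (25.6 and 25.8). In mesothelial cells it was 7.80 and 2.03 CPM, or 1.57% and 0.412% of the blood endothelial level, beside 0% to 1.34% and 0.170% to 0.677% for the endothelial markers. Blood endothelial cells held 43.0% and 44.2% of all *Eng* UMIs and fibroblasts 33.1% and 30.5%, so that most *Eng* UMIs were found outside the blood endothelium. Among cells of 5000 to 25000 UMIs the blood endothelial share was 29.1%, and fibroblasts then held the larger share. The lower limit lies above the median depth of blood endothelial cells (3742 and 3039 UMIs).

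The promoters of *Eng* and *Tgfb2* are shown because *Eng* was highest in blood endothelial cells and had its lowest mean in mesothelial cells, where *Tgfb2* was highest. The RefSeq promoter table (GRCm38.p6) held 5 of the 8 genes. Capitals mark GGAA or its reverse complement TTCC, the core read by ETS family factors, which are abundant in endothelium. The first sequence is chr2:32646345-32646594 on the plus strand and the second chr1:186705990-186706239 on the minus strand, each the 250 bases before the start of the gene, read 5′ to 3′.
Eng: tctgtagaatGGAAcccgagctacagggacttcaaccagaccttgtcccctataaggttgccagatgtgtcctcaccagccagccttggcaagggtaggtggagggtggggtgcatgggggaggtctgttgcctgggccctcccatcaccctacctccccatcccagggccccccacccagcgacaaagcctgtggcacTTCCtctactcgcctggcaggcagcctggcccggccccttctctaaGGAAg
Tgfb2: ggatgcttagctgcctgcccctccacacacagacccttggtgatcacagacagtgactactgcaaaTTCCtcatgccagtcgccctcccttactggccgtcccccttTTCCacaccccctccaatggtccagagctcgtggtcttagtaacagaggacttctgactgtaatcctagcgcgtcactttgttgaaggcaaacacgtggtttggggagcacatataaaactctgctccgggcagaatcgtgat
The core occurred 3 times before *Eng*, 2 times before *Tgfb2*, 4 times before *Tgfbr2*, 1 time before *Tgfb1* and 0 and 5 times before the 2 listed starts of *Tgfbr1*. At least 1 match was found in 93.4% of the 32851 promoters of the table over the same length, where the median was 3 matches, so that the *Eng* promoter was at the median. A match describes the letters of the window and is not a binding site.

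**Figure D2:**
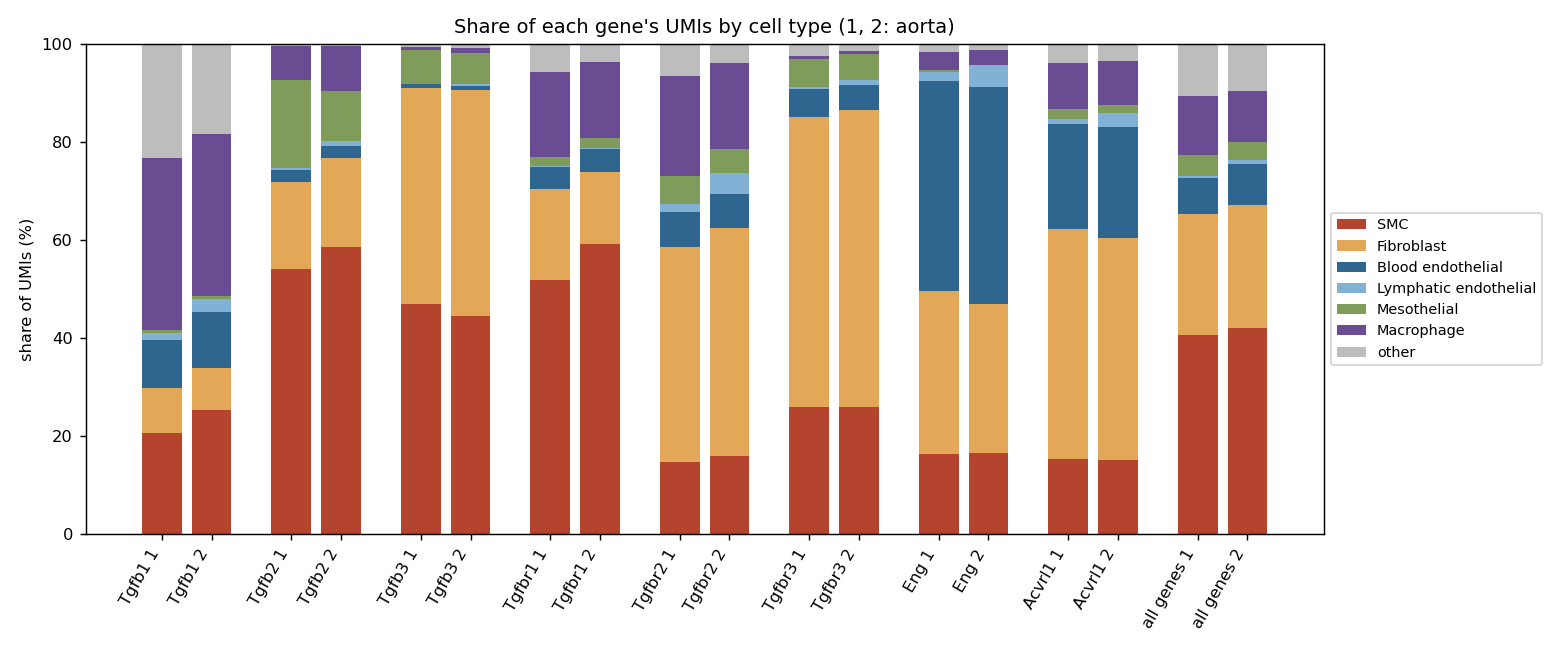
Share of each gene's UMIs (y axis, percent) held by each cell type, with 1 bar per aorta, and the share of the UMIs of all genes at the right. SMCs hold 54.1% and 58.5% of *Tgfb2* but 14.7% and 15.9% of *Tgfbr2*, against 40.7% and 42.2% of all UMIs.

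Differences between cell types were then tested. Between blood endothelial cells and SMCs, 7 of 8 genes were called. *Eng* (log2 fold change 3.63 ± 0.13 SE, adjusted p = 4.63e-18), *Acvrl1* (2.76 ± 0.15, adjusted p = 3.03e-14), *Tgfb1* (1.13 ± 0.15) and *Tgfbr2* (1.12 ± 0.15) were higher in endothelium, where 15.6% of all genes were called. *Tgfb3* (-3.65 ± 0.28, adjusted p = 3.64e-11), *Tgfb2* (-2.30 ± 0.22) and *Tgfbr1* (-1.37 ± 0.15) were higher in SMCs, as were 13.6% of all genes. *Tgfbr3* did not pass the test (-0.01 ± 0.14, adjusted p = 0.978). The receptor pair thus differed in opposite directions, with each difference called.

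Between fibroblasts and SMCs, 5 genes were called, all of them receptors. *Acvrl1* (log2 fold change 2.26 ± 0.14 SE, adjusted p = 6.98e-13), *Tgfbr2* (2.22 ± 0.14, adjusted p = 2.47e-13), *Tgfbr3* (1.86 ± 0.11) and *Eng* (1.61 ± 0.12) were higher in fibroblasts, beside 15.4% of all genes. *Tgfbr1* was higher in SMCs (-1.06 ± 0.13, adjusted p = 7.01e-08), as were 9.48% of all genes, but was under 2-fold in aorta 1 alone (-0.85, against -1.33 in aorta 2). The 3 ligands had adjusted p under 0.05 but differed by less than 2-fold, with log2 fold changes of -0.69 for *Tgfb1*, -0.97 for *Tgfb2* and 0.62 for *Tgfb3*. *Tgfb2* lay at the 2-fold limit and was called under 5 of the alternatives, 4 of them at -1.01 to -1.04 and 1, without the SMC clusters with a mural marker, at -1.16. *Tgfbr1* was under the limit when counts were scaled by library size only (-0.98).

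Between blood endothelial cells and fibroblasts, *Eng* (log2 fold change 2.03 ± 0.12 SE, adjusted p = 1.88e-13) and *Tgfb1* (1.82 ± 0.16) were higher in endothelium, where 10.8% of all genes were called. *Tgfb3* (-4.27 ± 0.27, adjusted p = 1.2e-12), *Tgfbr3* (-1.87 ± 0.13), *Tgfb2* (-1.32 ± 0.23) and *Tgfbr2* (-1.10 ± 0.14) were higher in fibroblasts, as were 14.3% of all genes. *Tgfbr2* was just under 2-fold when counts were scaled by library size only. *Tgfb2* was under 2-fold when doublets were kept (-0.80) and among cells with 5000 to 25000 UMIs (-0.85). *Acvrl1* passed the test but not the fold limit (0.50 ± 0.14, adjusted p = 0.00371), and *Tgfbr1* passed neither (-0.32 ± 0.16, adjusted p = 0.117).

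Between mesothelial cells and fibroblasts 7 genes had an adjusted p under 0.05, and 4 of these passed the fold limit and were called. *Tgfb2* was the only called gene higher in mesothelial cells (log2 fold change 2.14 ± 0.18 SE, adjusted p = 1.94e-10), where 10.2% of all genes were called. *Eng* (-4.46 ± 0.25, adjusted p = 1.16e-13), *Acvrl1* (-2.26 ± 0.20) and *Tgfb1* (-1.37 ± 0.29) were higher in fibroblasts, as were 13.5% of all genes. The *Eng* value was -4.03 in aorta 1 alone and -5.92 in aorta 2, and that of *Tgfb2* 2.33 and 1.80. The *Tgfb1* call was lost when doublets were kept (-0.55, adjusted p = 0.0887). *Tgfbr3* was near the limit (-0.97 ± 0.14) and was called under 4 alternatives (-1.01 to -1.07). *Tgfbr2* (-0.63 ± 0.14, adjusted p = 0.000968) and *Tgfbr1* (-0.60 ± 0.20, adjusted p = 0.0164) passed the test but not the fold limit, and *Tgfbr1* was -0.94 in aorta 1 alone and -0.14 in aorta 2. *Tgfb3* did not pass (-0.28 ± 0.18, adjusted p = 0.251).

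Between macrophages and SMCs, *Tgfb1* (log2 fold change 2.5 ± 0.14 SE, adjusted p = 2.18e-14), *Tgfbr2* (2.24 ± 0.14) and *Acvrl1* (1.19 ± 0.16) were higher in macrophages, beside 21.4% of all genes. *Tgfb3* (-3.92 ± 0.27) and *Tgfbr3* (-3.78 ± 0.23) were higher in SMCs, as were 21.5% of all genes. *Eng* passed the test but not the fold limit (-0.41 ± 0.16, adjusted p = 0.0242). *Tgfbr1* did not pass (0.16 ± 0.13, adjusted p = 0.26), and *Tgfb2* was under the fold limit in edgeR (-0.91 ± 0.18) but was called by DESeq2 (-1.04) and under 4 further alternatives that kept every macrophage cluster (-1.05 to -1.17). It was -1.15 in aorta 1 alone and -0.66 in aorta 2. *Tgfb3* was -4.48 and -3.25. The values of *Tgfbr1* and *Tgfb2* each joined unlike macrophage clusters, described next.

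Over the 5 leukocyte types and 4 structural types with equal weight (SMCs, fibroblasts, blood endothelial and mesothelial cells), *Tgfb1* was the only gene higher in leukocytes (log2 fold change 2.59 ± 0.15 SE, adjusted p = 1.06e-13), where 9.14% of all genes were called. *Tgfb3* (-4.77 ± 0.46), *Tgfb2* (-3.37 ± 0.29), *Acvrl1* (-3.34 ± 0.39), *Tgfbr3* (-2.46 ± 0.15) and *Eng* (-1.95 ± 0.22) were higher in structural cells, as were 28.9% of all genes. These fitted values depend on the prior count where a type had 0 UMIs, as neutrophils had of *Tgfb3* and *Acvrl1* in both aortas and of *Tgfb2* and *Tgfbr3* in aorta 2, and monocytes of *Tgfb2* and *Tgfb3* in aorta 1. In aorta 1 alone *Tgfb3* was -6.33, *Tgfb2* -4.72 and *Tgfbr3* -2.23, and in aorta 2 they were -4.15, -4.45 and -4.37. The median over all genes in this comparison was itself -0.53, against -2.21 for the 8 genes. *Tgfbr1* (0.05 ± 0.16, adjusted p = 0.901) and *Tgfbr2* (-0.26 ± 0.12, adjusted p = 0.0751) did not pass.

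**Figure D3:**
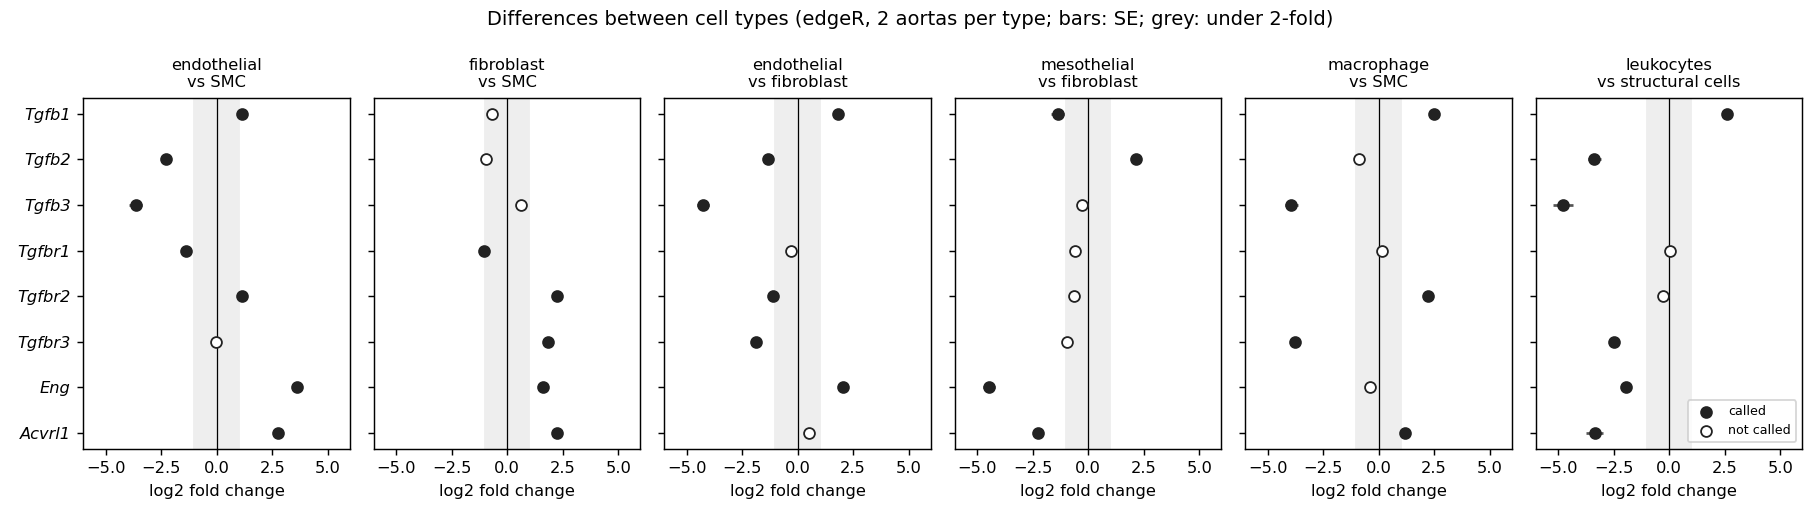
Log2 fold change of each gene (x axis) in 6 comparisons between cell types from edgeR, with SE bars, filled points for called genes, open points for the others and a grey band for differences under 2-fold. *Tgfbr1* and *Tgfbr2* lie on opposite sides of 0 between endothelial cells and SMCs (-1.37 and 1.12) and between fibroblasts and SMCs (-1.06 and 2.22).

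Within a cell type the same genes were unevenly spread over clusters, which are described here without a test because clusters come from the same cells' transcripts. Of 4 macrophage clusters, the one led by *Slpi*, *Saa3*, *Prg4* and *Marco* (78 and 42 cells) had 194 and 313 CPM of *Tgfb2*, while the other 3 had 0 to 11.7. It held 9.84% and 8.77% of the macrophages and 93.1% (interval 89.2 to 95.9) and 99.4% (96.9 to 100) of their *Tgfb2* UMIs. The *Tgfb2* of macrophages was thus nearly all in 1 small cluster. Mesothelial markers, from the type with the highest *Tgfb2*, summed in these cells to 0.180% and 0.0512% of their mesothelial level, with 1 and 4 of 6 at 0. The median depth of the cluster was 15228.5 UMIs, the highest of the 4, and the part of depth was not tested. Without it the fitted *Tgfb2* difference between macrophages and SMCs was -5.18, a direction that leaving out this cluster fixes.

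The macrophage cluster led by *Mmp12*, *H2-M2* and class II genes (119 and 80 cells) stood apart in *Tgfbr1*, with 422 and 387 CPM against 25.5 to 45.5 in the other 3. It held 64.3% and 67.4% of macrophage *Tgfbr1* UMIs. It also had the most *Acvrl1* (139 and 159 CPM) and *Tgfb1* (402 and 344). Its *Tgfbr2*, at 112 and 129 CPM, was below the 271 and 272 of the largest cluster, led by *Mrc1*, *F13a1* and *Folr2*. Without the *Mmp12* cluster, macrophages had less *Tgfbr1* than SMCs (log2 fold change -1.15), the opposite sign of the pooled value, as the cluster was chosen for holding most of the gene's UMIs, and the *Acvrl1* difference fell under the fold limit (0.53, adjusted p = 0.0114).

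Fibroblast clusters differed most in *Tgfb3* and *Tgfbr2*. The cluster led by *Pla1a*, *Cd55* and *Pi16* (175 and 208 cells) had the most *Tgfbr2* (463 and 433 CPM) and *Tgfbr3* (276 and 236) and the least *Tgfb3* (13.01 and 21.1). The cluster led by *Fmod* and *Vegfd* (499 and 342 cells) had 136 and 148 CPM of *Tgfb3* and 173 and 197 of *Tgfbr2*. *Tgfb1* was highest in the cluster led by *Dio2* and *Meox1* (67.8 and 53.1 CPM) and was 12.6 to 32.3 in the other 5. SMC markers in that cluster summed to 17.3% and 36.0% of their SMC level, against 1.91% and 1.82% in the *Fmod* cluster, and their part in its *Tgfb1* level was not tested. A cluster led by *Mab21l2*, *Nrn1* and *Mme* also carried SMC markers (17.7% and 29.3% of their SMC level) and had the highest mean *Tgfb3* (180.1 and 115 CPM), with its aortas wide apart.

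Blood endothelial clusters put *Eng* and *Acvrl1* in different orders. *Eng* was lowest in the cluster led by *Cytl1* and *Vwf* (321 and 314 CPM), higher in that led by *Stmn2* and *Gkn3* (511 and 473), higher again in that led by *Emcn* and *Bmp6* (703 and 714), and highest in that led by *Gpihbp1* and *Fabp4* (727 and 937). *Acvrl1* was highest in the *Gkn3* cluster (232 and 235 CPM) and had its lowest mean in the *Emcn* cluster (113 and 95.8). *Tgfbr3* was 144 and 86.9 CPM in the *Gpihbp1* cluster and 19.2 to 70.6 in the other 3. Among T cells, the cluster led by *Rag1* and *Dntt*, genes of immature thymocytes, had 34.5 and 23.3 CPM of *Tgfbr2* against 101 and 93.6 in the largest cluster.

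**Figure D4:**
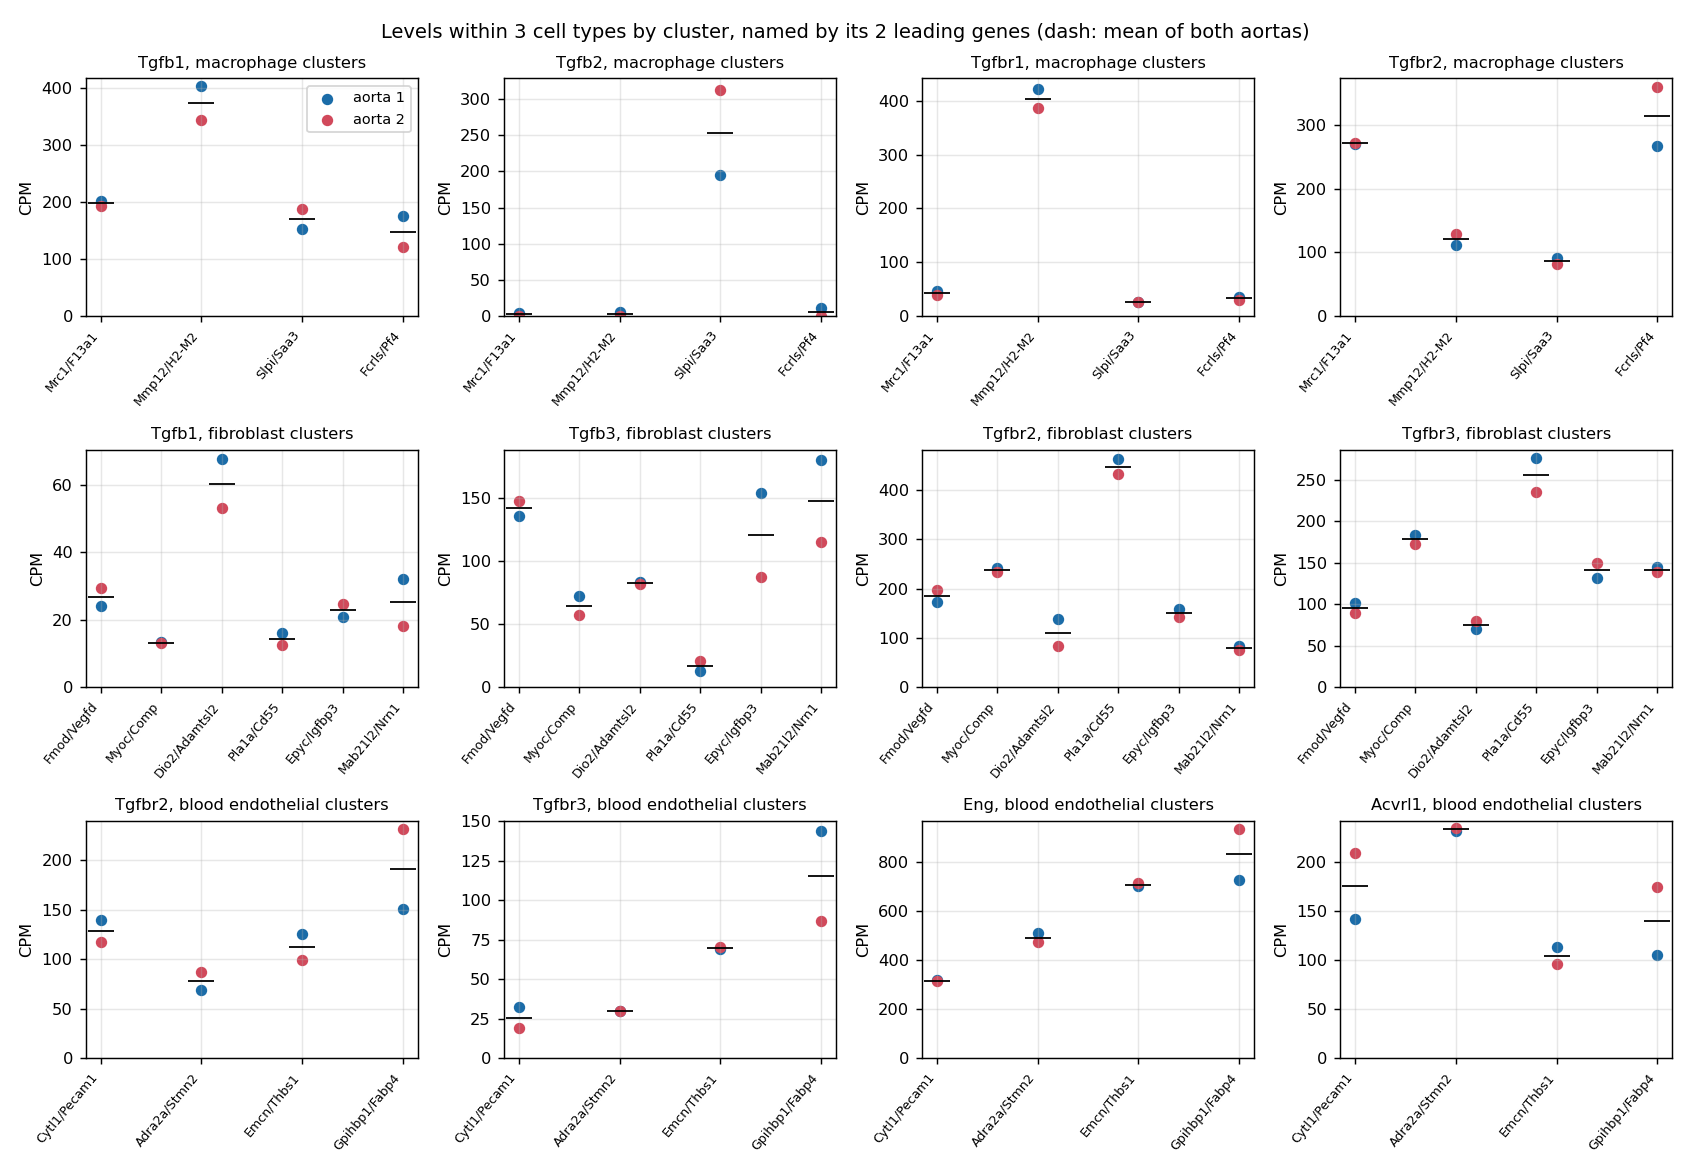
Levels (y axis, CPM) of 4 genes per cell type in clusters (x axis) of macrophages, fibroblasts and blood endothelial cells, each cluster named by its 2 leading genes, with 1 point per aorta and a dash at their mean. *Tgfb2* stands up in the *Slpi* cluster (194 and 313 CPM) and *Tgfbr1* in the *Mmp12* cluster (422 and 387).

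SMCs were next divided by transcription factors that mark position along the aorta. Cells with a UMI of *Hand2* or *Tbx20* (485 and 248 cells), of *Dlx5*, *Dlx6* or *Msx2* (377 and 336) or of a posterior *Hox* gene (311 and 257), and none of the other lists, were compared. The factor genes themselves were left out of the background shares. The 1006 and 724 SMCs with no UMI of any list had a lower median depth (4621 and 4590.5 UMIs, against 7678.5 to 9704 in the 3 groups) and were not compared. Of the *Dlx*/*Msx2* SMCs, 93.4% and 93.5% lay in the SMC clusters led by a mural marker, against 4.1% and 3.2% of *Hand2*/*Tbx20* and 10.3% and 12.8% of posterior *Hox* SMCs. The larger of these clusters (911 cells) also had *Dlx6* and *Dlx5*, which define the group, among its leading genes. The overlap is therefore partly built in. The summed level of the 5 mural markers was 3309 and 2492 CPM in *Dlx*/*Msx2* SMCs, 307.5 and 394 in *Hand2*/*Tbx20* SMCs and 904 and 887 in posterior *Hox* SMCs. *Rgs5*, *Kcnj8* and *Abcc9* were highest in the *Dlx*/*Msx2* cells, *Notch3* was lowest there and *Higd1b* was at 0. What this carries into the values of the 3 groups was not tested beyond leaving those clusters out.

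*Eng* was highest in *Dlx*/*Msx2* SMCs, with 64.3 and 56.1 CPM, against 26.2 and 27.6 in *Hand2*/*Tbx20* SMCs and 30.2 and 29.0 in posterior *Hox* SMCs, without overlap. *Tgfb1* was also highest there (52.0 and 54.6 CPM, against 31.9 and 35.2 and 33.3 and 37.7), as were *Tgfbr3* (57.3 and 54.2, against 30.6 and 34.7 and 37.4 and 29.9) and *Acvrl1* (31.3 and 30.9, against 16.3 and 21.8 and 20.9 and 17.3). For each of these genes the other 2 groups overlapped. *Tgfb2* was lowest in *Dlx*/*Msx2* SMCs (80.98 and 81.7 CPM) and higher in posterior *Hox* (105 and 101) and *Hand2*/*Tbx20* SMCs (144 and 102), which overlapped. *Tgfbr2* was 40.5 to 54.2 CPM, *Tgfbr1* 71.4 to 98.0 and *Tgfb3* 42.3 to 66.6 over the 6 values, and the groups overlapped, except that *Tgfbr1* in *Dlx*/*Msx2* SMCs (98.0 and 87.8) lay just above *Hand2*/*Tbx20* SMCs (76.3 and 87.3).

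By edgeR, 0 of 8 genes were called between *Dlx*/*Msx2* and *Hand2*/*Tbx20* SMCs, where 5.84% of all genes were called as higher in the former and 4.05% in the latter. DESeq2 also called 0. At an unadjusted p under 0.05, 5 genes differed, and the same number had an adjusted p under 0.05, as did 24.7% of all genes: *Eng* (log2 fold change 0.96 ± 0.14 SE, adjusted p = 2.52e-05), *Tgfb2* (-0.84 ± 0.14, adjusted p = 8.99e-05), *Tgfbr3* (0.58 ± 0.14), *Acvrl1* (0.55 ± 0.18) and *Tgfb1* (0.47 ± 0.14). The *Tgfb2* difference was -1.06 in aorta 1 and -0.49 in aorta 2. *Eng* stood at the 2-fold limit and was called under 3 alternatives with this scaling (1.01 to 1.02). *Tgfbr1* (-0.01 ± 0.12, adjusted p = 0.98) and *Tgfbr2* (-0.13 ± 0.14, adjusted p = 0.549) did not pass, nor did *Tgfb3* (-0.21 ± 0.18, adjusted p = 0.441). Without the clusters led by a mural marker, an alternative chosen after seeing the data, 25 and 22 *Dlx*/*Msx2* cells were left, with 10 and 7 UMIs of *Eng*, and no gene of the 8 had an adjusted p under 0.05. Because *Dlx5* and *Dlx6* are leading genes of the larger of these clusters, leaving it out takes away most of the group. This alternative therefore cannot decide whether the differences hold. *Eng* was then at 53.6 and 36.4 CPM in *Dlx*/*Msx2* SMCs, against 26.3 and 28.6 in *Hand2*/*Tbx20* SMCs (log2 fold change 0.63 ± 0.37 SE, adjusted p = 0.764 by edgeR). *Tgfb2* changed sign (0.35 ± 0.28, adjusted p = 0.843), with 247 and 93.5 CPM in these few cells. Of all 10451 genes tested, 13 were then called.

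These fitted values are scaled by TMM and run lower for *Dlx*/*Msx2* SMCs than the CPM, whose means were 50.3 and 47.9 for *Tgfbr2* and 92.9 and 81.8 for *Tgfbr1* in *Dlx*/*Msx2* and *Hand2*/*Tbx20* SMCs. When counts were scaled by library size only, in edgeR, the median of all genes moved from 0.01 to 0.23, and the share of called genes that were higher in *Dlx*/*Msx2* SMCs moved from 59.1% to 72.4%. *Eng* was then called (log2 fold change 1.18 ± 0.15 SE, adjusted p = 1.48e-06), while *Tgfbr1* (0.20), *Tgfbr2* (0.08) and *Tgfb3* (0.004) changed sign without passing the test. *Tgfb2* stayed lower in *Dlx*/*Msx2* SMCs (-0.63 ± 0.13, adjusted p = 0.000909).

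Between posterior *Hox* and *Dlx*/*Msx2* SMCs both tools again called 0 of 8 genes, beside 4.34% and 6.26% of all genes called as higher in the former and the latter. Here 5 genes had an unadjusted p under 0.05, and 4 an adjusted p under 0.05, against 24.4% of all genes: *Eng* (-0.84 ± 0.15, adjusted p = 0.000175), *Tgfb2* (0.53 ± 0.14), *Tgfbr3* (-0.53 ± 0.15) and *Tgfb1* (-0.40 ± 0.14). With library size only, *Eng* was called (-1.02), *Tgfb2* did not pass (0.34, adjusted p = 0.0719), *Acvrl1* did (-0.69, adjusted p = 0.00965), and the share of called genes higher in posterior *Hox* SMCs moved from 41.0% to 28.8%. Without the clusters led by a mural marker *Eng* did not pass (-0.57 ± 0.37, adjusted p = 0.747), *Tgfb2* changed sign (-0.66 ± 0.29, adjusted p = 0.534), and 33 of all genes were called. Both comparisons share the *Dlx*/*Msx2* cells, of which that alternative left few. Between posterior *Hox* and *Hand2*/*Tbx20* SMCs both tools called 0 genes, with 1 at an unadjusted p under 0.05 (*Tgfb2*, log2 fold change -0.31 ± 0.14, adjusted p = 0.406) and none adjusted, where 0.583% and 0.51% of all genes were called and 2.08% had an adjusted p under 0.05.

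**Figure D5:**
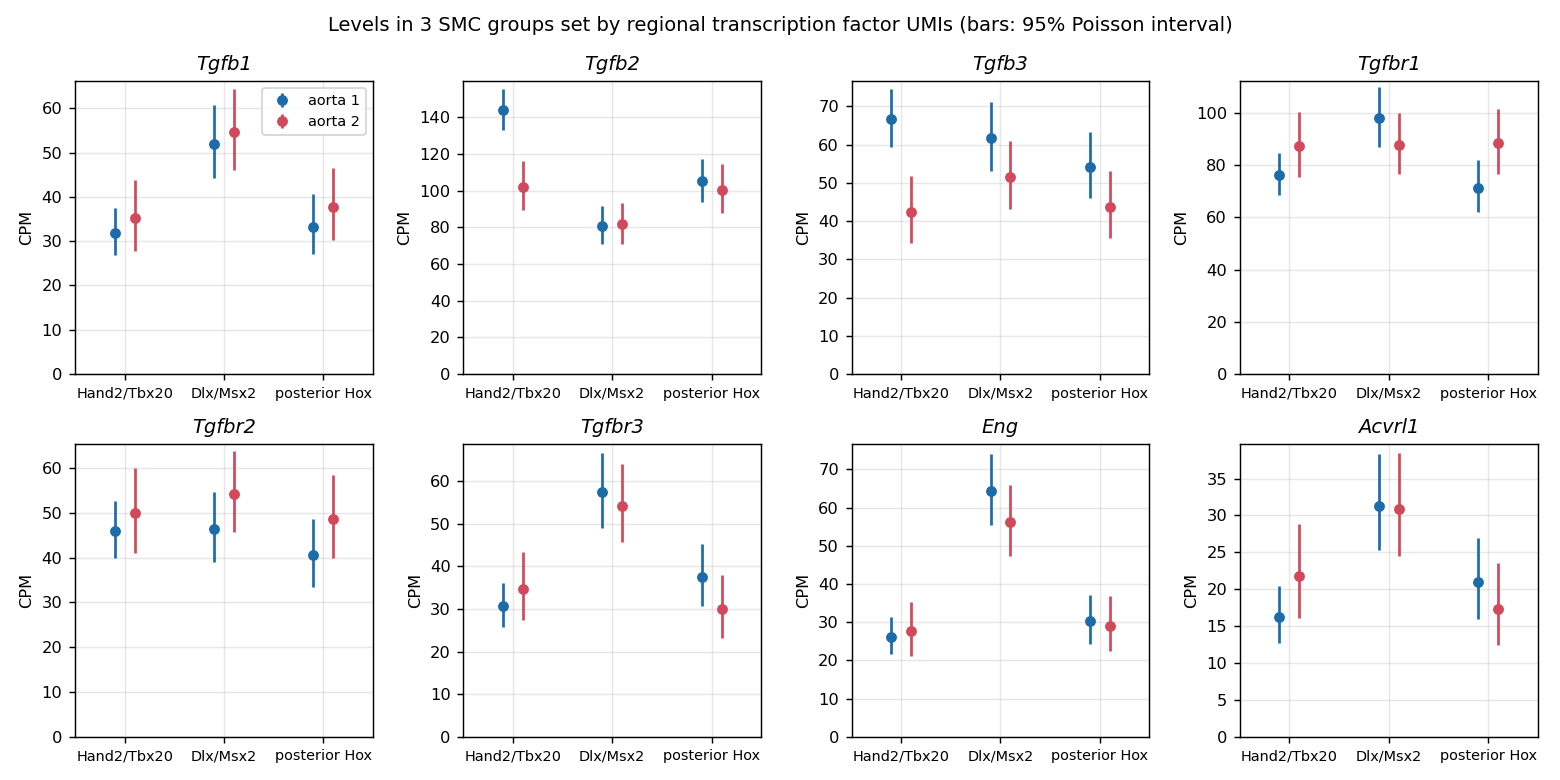
Level (y axis, CPM) of the 8 genes in 3 SMC groups set by regional transcription factors, with 1 point per aorta and its 95% Poisson interval. *Eng* is 64.3 and 56.1 CPM in *Dlx*/*Msx2* SMCs and 26.2 to 30.2 in the other groups, while *Tgfbr2* overlaps across the groups.

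When SMCs were clustered again without the 8 genes and the pathway genes, the cells led by *Pln*, *Sncg* and *Notch3* (63 and 51 cells) had 207 and 58.1 CPM of *Tgfb3*, a gap between aortas too wide to place that subcluster. A subcluster of low depth with *Tigd4*, *Adam33* and *Malat1* among its leading genes (72 and 67 cells, median 1858 UMIs) had 239 and 150 CPM of *Tgfbr1*, against 80.9 to 99.2 in the 3 large subclusters of higher depth. A large subcluster, also of low depth (470 and 287 cells, median 1784 UMIs), had 32.4 and 45.1 CPM. Its leading genes were mostly those of liver, among them *Mup3*, *Fabp1*, *Apoa2* and *Alb*, and its median mitochondrial share per cell, 6.995% of UMIs, was the highest of the 8 subclusters. The part of either in its *Tgfbr1* level was not tested. Subclusters of 20 and 18 cells carried endothelial and macrophage genes and are not described further.

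Other genes of the pathway were read from the list of 43, of which 41 were tested between cell types. Between blood endothelial cells and SMCs 20 were called, 11 of them higher in endothelium, beside 15.6% of all genes, led by *Thbs1* (log2 fold change 6.24), an activator of latent TGF-β, and *Lrrc32* (3.06) and *Nrros* (2.31), which tether latent ligand to the cell surface. Higher in SMCs were 9, beside 13.6% of all genes, among them the BMP receptor *Bmpr1b* (-10.18) and *Cd109* (-4.88), a coreceptor. The list's median was 0.03, against 0 over all genes. Fitted values of this size depend on the prior count.

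Fibroblasts had 6 of the 41 higher than SMCs (15.4% of all genes), led by *Tgfbi* (7.73), *Fbn1* (2.52), which encodes fibrillin-1, and *Thbs1* (1.81), and 6 lower (9.48% of all genes), among them *Bmpr1b* (-2.58) and *Smad9* (-1.61). Against 10.8% and 14.3% of all genes, blood endothelial cells had 8 higher than fibroblasts (*Thbs1* 4.44, the inhibitory *Smad6* 2.5, *Nrros* 2.25) and 10 lower (*Bmpr1b* -7.60, *Tgfbi* -6.45, *Cd109* -4.75). In mesothelial cells 7 were higher than in fibroblasts, beside 10.2% of all genes, led by *Amhr2* (7.30) and by *Gdf2* (5.78), which encodes BMP9, the ligand of the receptor encoded by *Acvrl1*, and then *Id1* (2.77). Against these, 12 were lower, beside 13.5% of all genes, led by *Tgfbi* (-6.12), *Ccn2* (-5.65) and *Lrrc32* (-3.88).

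Beside 21.4% of all genes higher and 21.5% lower, macrophages had 5 of the list higher than SMCs (*Nrros* 7.78, *Tgfbi* 7.30, *Thbs1* 4.25) and 21 lower (*Smad9* -8.67, *Bmpr1b* -6.61, *Ccn2* -6.09), with a list median of -1.56 against 0 over all genes. Over all leukocyte types, 3 were higher (*Nrros* 6.06, *Tgfbi* 2.19, *Tgif1* 1.38) and 26 lower (*Smad9* -5.67, *Ltbp2* -5.36, *Lrrc32* -5.26), with a list median of -2.43, beside 9.14% and 28.9% of all genes and a median over all genes of -0.53.

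Between SMC groups 37 of the list were tested. Beside 5.84% and 4.05% of all genes, *Dlx*/*Msx2* SMCs had more *Ltbp2* (2.70), *Itgb8* (2.37), *Bmpr1b* (1.97) and *Smad9* (1.25) than *Hand2*/*Tbx20* SMCs and less of 3, among them *Thbs1* (-3.64) and *Lrrc32* (-2.47). Posterior *Hox* SMCs differed from *Dlx*/*Msx2* SMCs in 7 genes (4.34% and 6.26% of all genes), with 3 higher, among them *Lrrc32* (3.21) and *Thbs1* (2.52), and 4 lower, led by *Itgb8* (-3.38), *Ltbp2* (-2.68) and *Bmpr1b* (-2.46). From *Hand2*/*Tbx20* SMCs they differed in 0 by edgeR.

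Genes whose mean level over the 10 cell types was among the most like that of each member were found among 9429 genes of at least 10 CPM. With so few types and so many genes, close matches are common, and the values are a description. They were *Abi3* (Pearson r 0.94), *Supt5* and *Arhgef3* (both 0.93) for *Tgfb1*; *Gas6* (0.96), *Arhgef12* (0.95) and *Wls* (0.94) for *Tgfb2*; and *Mmp23* (0.98), *Mdk* (0.97) and *Mn1* (0.97) for *Tgfb3*. For the receptors they were *Mef2a*, *Atp6v1a* (both 0.90) and *Tusc1* (0.87) for *Tgfbr1*, *Lbp* (0.94), *Ccnd1* (0.92) and *Golph3* (0.90) for *Tgfbr2*, *Mpdz* and *Mex3c* (both 0.95) for *Tgfbr3*, *Kcnn3*, *Tbx1* (both 0.96) and *Adcy4* (0.94) for *Eng*, and *Zfp655*, *Lima1* (both 0.96) and *Tmed9* (0.95) for *Acvrl1*. Among the members, *Tgfb2* with *Tgfb3* (0.82) and *Tgfb3* with *Tgfbr3* (0.81) were most alike, *Eng* with *Acvrl1* had 0.73, *Tgfbr1* with *Tgfbr2* -0.33 and *Tgfb1* with *Tgfb3* -0.79.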

How the data were processed

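Per the labels, single viable cells of 2 thoracic aortas were captured with 10x Chromium Next GEM 3′ v3.1 reagents, 1 library per mouse, so that each aorta is 1 replicate and p-values measure the spread between 2 mice. The authors deposited raw UMI counts per gene and cell, made per the file headers with Cell Ranger 4.0.0 on mm10 with eGFP and tdTomato added, and the submitters' processing notes name Seurat 4.0. No cell annotation was used.

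Cells with at least 200 genes, 1000 to 25000 UMIs and at most 10% mitochondrial UMIs were kept. Scrublet marked 201 and 89 doublets (2.98% and 1.89%), which were removed. Cells were clustered with scanpy 1.11.5 (2000 variable genes, 30 components, 15 neighbours, Leiden resolution 1) without the members and the pathway list, and clusters were named from marker lists of 21 classes. SMCs were clustered again at resolution 0.5. Types needed 20 cells in each aorta. Median UMIs per analysed cell were 5671 and 5392. The labels' own cell totals after filtering were 6278 and 4300.

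Counts were summed per aorta and cell type, or SMC group, and fitted with edgeR 4.0.16 (TMM, filterByExpr, quasi-likelihood test, Benjamini-Hochberg adjustment over 13156 genes between types and 10983 between SMC groups, of which 10975 that are not group-defining factors give the background shares) in R 4.3.3. CPM were computed from the same sums. The study states no test for these libraries, and its thresholds for bulk RNA were used. In counts simulated for the comparison of blood endothelial cells and SMCs (12075 genes), 100% of 4-fold and 98% of 2-fold changes were recovered. For *Dlx*/*Msx2* against *Hand2*/*Tbx20* SMCs (10837 genes) these shares were 93.9% and 78.1%. Recovered means an adjusted p under 0.05 in edgeR's test, without the fold limit. These are therefore not the shares of changes that would be called. Carry-over between droplets was gauged by the level of a source type's markers in the receiving type, as a percent of their level in the source.

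Cell types of 1 aorta come from the same animal, which pairs them. The deviations of the aortas from the type means correlated by -0.06 to 0.12 over 45 pairs of types (median 0.02) and by 0.07 to 0.09 over 3 pairs of SMC groups. A fit with the aorta as a block was an alternative, beside DESeq2 1.42.0, other scaling, gene and cell filters, other clustering resolutions and each aorta left out.

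All 8 members are named. From the pathway list, up to 3 called genes per direction with the largest log2 fold change are named, and for each member the 3 genes of highest correlation, outside the marker lists, except for items that are not reported here. *Smad9* in the *Dlx*/*Msx2* comparison, and the genes naming clusters, fall outside that rule and were chosen after their values were seen. Members and lists were chosen with earlier results of these data known. The rule for naming clusters was revised after the cluster tables, but not the members' values, had been seen.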

Additional observations from a re-analysis of the deposited data

How the results depend on the processing

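Of 1128 values of single genes under an alternative, 1057 stayed the same. For a tested value this means that it kept its call. With 1 aorta left out there is no call, and it means a move of less than the SE of the main fit. Of the 1057, 33 changed sign, with an adjusted p under 0.05 in neither fit where both were tested. Another 42, all from leaving out an aorta, moved by at least that SE, and 6 of these changed sign. Of the rest, 20 passed a threshold they had missed and 6 lost it. The other 3 reversed. The 3 reversed values were *Tgfbr1* between macrophages and SMCs, at -1.15 without the *Mmp12* cluster, and *Tgfb2* without the SMC clusters led by a mural marker, at 0.35 between *Dlx*/*Msx2* and *Hand2*/*Tbx20* SMCs and -0.66 between posterior *Hox* and *Dlx*/*Msx2* SMCs, where 25 and 22 *Dlx*/*Msx2* cells were left. The larger of these SMC clusters has *Dlx5* and *Dlx6* among its leading genes. Leaving out clusters was chosen after seeing the data, for the *Mmp12* cluster, the SMC clusters led by a mural marker, the *Marco* cluster and the clusters of low depth or mixed markers alike, as was scaling by library size only. The only cluster left out for mixed markers was the fibroblast cluster led by *Mab21l2* and *Nrn1*. The *Dio2* and *Meox1* fibroblast cluster, with SMC markers at 17.3% and 36.0% of their SMC level, was kept. Comparisons with fibroblasts were not tested without it. The replicate block (aorta) changed no call: 7 members were called between blood endothelial cells and SMCs, 5 between fibroblasts and SMCs, and 0 in each comparison of SMC groups, as without it. Between *Dlx*/*Msx2* and *Hand2*/*Tbx20* SMCs, 1 member (*Eng*) was called among cells of 5000 to 25000 UMIs, with at least 2 UMIs of a factor list, without clusters of low depth or mixed markers, and with library size only, where 1 (*Eng*) was also called between posterior *Hox* and *Dlx*/*Msx2* SMCs.

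Among cells of 5000 to 25000 UMIs, macrophages held 42.8% of *Tgfb1*, SMCs 59.7% of *Tgfb2*, 51.8% of *Tgfb3* and 63.9% of *Tgfbr1*, fibroblasts 47.1% of *Tgfbr2*, 55.7% of *Tgfbr3* and 48.1% of *Acvrl1*, and blood endothelial cells 29.1% of *Eng*, and fibroblasts then held more *Eng* than blood endothelial cells. With doublets kept, SMCs held 43.1% of *Tgfb3*, and fibroblasts 42.1% of *Tgfbr2*, 55.2% of *Tgfbr3* and 41.9% of *Acvrl1*. At Leiden resolution 0.5 macrophages held 39.7% of *Tgfb1* and fibroblasts 58.4% of *Tgfbr3*, and at resolution 2 SMCs held 41.6% of *Tgfb3* and fibroblasts 58.1% of *Tgfbr3*. The lower limit of 5000 UMIs lies above the median depth of blood endothelial cells (3742 and 3039 UMIs). It lies below that of fibroblasts (5899 and 5743) and SMCs (7750 and 7487). The cause of the shifts in these shares was not tested.

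At 3000 UMIs per cell, both *Tgfbr1* and *Tgfbr2* were found in 3.21% of SMCs, 4.92% of fibroblasts, 2.96% of blood endothelial cells and 7.64% of macrophages, and without thinning in 13.96%, 14.1%, 4.64% and 17.5%. Cells with fewer than 3000 UMIs were left out of the first set, so the 3000 UMI shares and the unthinned shares cover different cells. With 1 aorta left out no spread can be estimated, and those values carry no test.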

Other observations

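Of the cells left without a name, a cluster of 75 and 51 cells led by *Lyz1*, *Ccr2*, *Plbd1* and *Cd209a* had 222 and 216 CPM of *Tgfb1*, within the range of lymphatic endothelial cells, and 56.8 and 57.5 CPM of *Acvrl1*. All unnamed cells together held 6.59% and 6.07% of the *Tgfb1* UMIs.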
